A study of Mus musculus with 19 samples.

Results

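Secondary (specific) and tertiary (gelatinase) granule genes were followed in monocytes sorted from mouse bone marrow. The 10 genes were chosen as genes of these granules or of the later stages of neutrophil maturation: Ltf, Lcn2, Camp, Ngp, Pglyrp1, Mmp8, Mmp9, Cd177, Ly6g and Padi4. They are 10 of the 50854 genes in the deposited table, and all 10 were among the 18652 genes that passed the filter on low counts (mean over all libraries of 1 read or more). The products of 3 of them are not kept in these granules alone: Ly6g encodes a surface antigen, Padi4 an enzyme found mainly in the nucleus, and Cd177 a protein that is also carried on the neutrophil surface.

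Bulk RNA-seq covered 19 libraries in 5 groups, all from female REP mice aged 8 to 12 weeks, which carry fluorescent reporters for chemokine receptors, CCR1 and CCR2 among them. Resting mice gave 4 libraries of CCR2+ve monocytes and 4 of CCR1/2+ve monocytes, the latter expressing both receptors. Inflamed mice gave 4 libraries of CCR2+ve monocytes, 3 of CCR1/2+ve monocytes and 4 labelled CCR1 alone, and per the study's methods these mice had carried pumps with IL-3, IL-6, GM-CSF and IFN-α for 7 days. The study sorted CD11b+ cells with high Ly6C and without Ly6G or SiglecF, so a product of 1 member, Ly6G, was used to leave cells out. No gate for the CCR1-labelled cells is given in the sources used here. The labels do not state whether replicates came from separate animals or whether resting mice carried vehicle pumps, so the p-values measure the spread between these samples.

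Neutrophils lay down their granules in waves as they mature. Primary granules with myeloperoxidase and elastase come first, secondary granules with lactoferrin and cathelicidin follow, and gelatinase-rich tertiary granules come last. C/EBP transcription factors, C/EBPε above all, are known to drive the secondary granule genes, and monocytes are not known for these granules. In bulk RNA, fewer cells that carry a transcript and less of that transcript per cell cannot be told apart.

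Monocyte markers were lower in 1 of the 5 groups than in the other 4. Reads on genes ran from 22268658 to 30502009 per library (median 23706580). The summed level of 12 monocyte markers was 31910 to 58496 CPM (read counts scaled to a common library size with TMM factors) across the 15 CCR2+ve and CCR1/2+ve libraries and 7775 to 12378 in the 4 CCR1-labelled libraries, which also lay beyond all others along both of the leading principal components (36.2% and 25% of the variance). In those 4, both receptors of the sort were lower than in inflamed CCR2+ve monocytes. Ccr2 was at 5.82 CPM ± 2.56 (SD, n = 4) against 1251 ± 125 (SD, n = 4), and Ccr1 had a log2 fold change of -2.45. At the RNA level these 4 libraries thus went against both their cell type label, monocytes, and their receptor, and they are called CCR1-labelled throughout. The results that involve them come last, and the main fits of the other comparisons left them out. They did count in the filter on low counts, in the scaling of all CPM values and in the alternative with all 19 libraries in one fit.

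Ngp, Camp and Ltf lie within 1.195 Mb of one another on chromosome 9 of GRCm38, and Mmp8 lies elsewhere on the same chromosome. Stretches of the 250 bases before the RefSeq transcript start of these 4 genes are given here, since they include the 3 genes that rose most and the 1 that fell in the CCR1-labelled libraries. The sequences are from RefSeq on GRCm38.p6 and are written from 5′ to 3′ on the gene's strand. Each begins at the far end of the 250 bases and is cut where an annotated exon begins. For Ngp, Camp and Ltf, at 189, 89 and 229 bases, the bases nearest the start are therefore left out. Capitals mark matches, on either strand, to TTGCNNAA, a core recognised by C/EBP factors, or to GAGGAA, a core recognised by PU.1.

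Ngp, chr9:110419558-110419746, + strand: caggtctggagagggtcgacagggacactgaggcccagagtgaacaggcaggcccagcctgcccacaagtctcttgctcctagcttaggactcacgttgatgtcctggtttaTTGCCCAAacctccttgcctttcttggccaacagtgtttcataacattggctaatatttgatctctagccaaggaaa

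Camp, chr9:109849618-109849706, - strand: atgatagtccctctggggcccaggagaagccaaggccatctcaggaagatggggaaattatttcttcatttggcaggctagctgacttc

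Ltf, chr9:111019042-111019270, + strand: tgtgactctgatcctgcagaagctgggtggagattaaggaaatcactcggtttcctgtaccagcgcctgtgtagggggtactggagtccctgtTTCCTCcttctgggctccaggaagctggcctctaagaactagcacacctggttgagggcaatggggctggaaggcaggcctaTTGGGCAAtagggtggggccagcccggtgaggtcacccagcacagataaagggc

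Mmp8, chr9:7558179-7558428, + strand: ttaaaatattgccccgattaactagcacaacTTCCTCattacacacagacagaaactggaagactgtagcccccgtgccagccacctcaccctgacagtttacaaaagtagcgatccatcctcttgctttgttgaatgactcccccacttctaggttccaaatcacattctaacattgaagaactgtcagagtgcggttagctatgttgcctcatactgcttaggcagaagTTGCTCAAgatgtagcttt

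Promoters were listed for 9 of the 10 genes, all but Mmp9, and were searched over the 250 bases before the start. A gene was counted if any of its listed windows matched, and Ly6g had 2, whereas the shares are of single windows. TTGCNNAA was found in 5 of the 9 (Lcn2, Mmp8, Ngp, Ltf and Ly6g), against 9.56% of 32851 promoters of the same length. Ngp held 2 such matches, the second of them beyond the stretch printed. GAGGAA was found in 6 of the 9 (Lcn2, Pglyrp1, Cd177, Mmp8, Ltf and Ly6g), against 23.3%. GGANTTTCC, an NF-κB core, was found in 1, Pglyrp1, against 1.07%. Neither TTCNNNGAA, a STAT core, nor AAANNGAAA, an interferon-response core, was found in any of the 9, against 7.02% and 9.37%. Mmp8 and Ltf, which moved in opposite directions in the CCR1-labelled libraries, each held 1 match to TTGCNNAA and 1 to GAGGAA, and the Camp window held neither. A match describes the letters of the window and does not show that a factor binds there.

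In resting monocytes the transcripts of these genes were mostly those of Cd177 and Mmp8. Per kilobase of exon, the scale used here whenever genes are compared with each other, Cd177 was at 308 CPM per kb ± 76.8 (SD, n = 4) in resting CCR2+ve monocytes and Mmp8 at 226 ± 68.1 (SD, n = 4). Cd177, a GPI-anchored surface protein, made up 46.7% ± 3.03 (SD, n = 4) of the 10 genes' summed level, and Mmp8, the neutrophil collagenase, 33.9% ± 3.26. Ngp made up 3.61% ± 1.58 and Camp 2.02% ± 0.944. Mmp9 and Ly6g were the lowest of the 10, at 0.0218 CPM per kb ± 0.0159 and 0.474 ± 0.0937. Resting CCR1/2+ve monocytes showed the same order at the top, with Cd177 at 37.5% ± 3.61 and Mmp8 at 30.9% ± 3.63, and Pglyrp1 at 12.6% ± 0.613 in place of 7.03% ± 0.952.

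**Figure D1:**
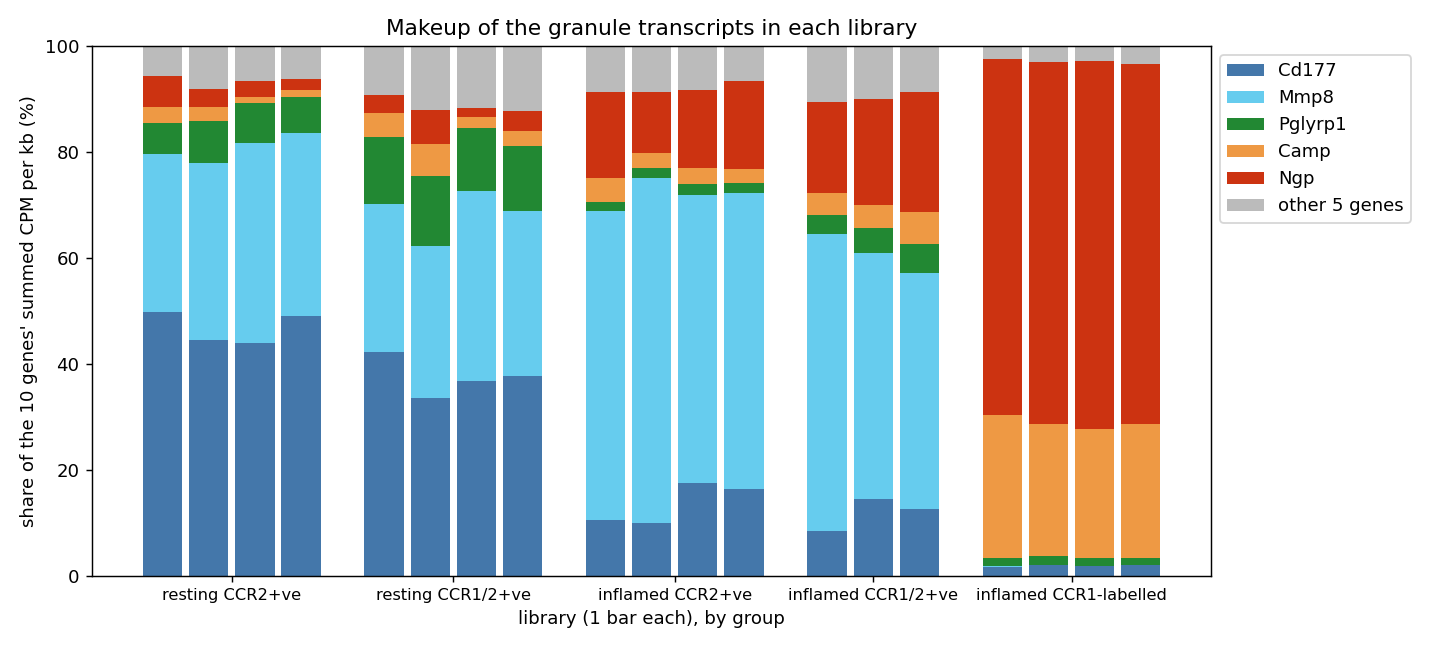
Each bar is 1 library, and its segments give the share (%) of the 10 genes' summed CPM per kb held by Cd177, Mmp8, Pglyrp1, Camp, Ngp and the other 5 genes. Cd177 and Mmp8 lead in the resting libraries, Mmp8 in the other inflamed libraries, and Ngp, at 67.0% to 69.4%, in the CCR1-labelled ones.

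The first comparison asked how the populations of resting mice differ in these transcripts. Of the 10 genes, 2 rose in CCR1/2+ve monocytes (adjusted p below 0.05 and a log2 fold change of at least 1), against 2.34% of all genes, and 0 fell, against 1.90%. At an adjusted p below 0.05 with no limit on the fold change, 4 were higher, against 8.44% of all genes, and 0 lower, against 8.44%. These counts took no account of the replicate number, although same-numbered libraries of the resting populations deviated together (correlations of 0.334 to 0.594). Among the alternative fits (edgeR or DESeq2) the lowest adjusted p was 5.39e-05 for Cd177 and 0.00803 for Mmp8. Both genes had negative log2 fold changes in every fit, and the highest adjusted p for Camp was 0.0796. The counts without a limit thus depended on the fit. The number of all genes called higher with the limit, 437, moved to 258 without the fourth CCR2+ve library and to 618 without the second. The median log2 fold change of the 10 was 0.11, and that of all genes 0.03.

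Lcn2, lipocalin 2, which binds bacterial siderophores and so withholds iron, rose in CCR1/2+ve monocytes. Its level was 62.6, 72.0, 109 and 136 CPM in the 4 CCR1/2+ve libraries and 11.5, 18.3, 27.9 and 27.6 CPM in the 4 CCR2+ve libraries. All 4 CCR1/2+ve libraries lay above all 4 CCR2+ve ones, and the log2 fold change was 2.23 ± 0.32 (SE, edgeR adjusted p = 0.00171). Mmp9, gelatinase B, the defining enzyme of tertiary granules, was read 99, 47, 34 and 78 times in the CCR1/2+ve libraries and 3, 2, 3 and 0 times in the CCR2+ve libraries. That gave a ratio of 27.3 (95% counting interval 13.7 to 63.9, from 258 against 8 reads) and an edgeR adjusted p of 0.000174. Mmp9 was nonetheless a scarce transcript, at 2.11 CPM ± 0.902 (SD, n = 4) in the CCR1/2+ve libraries.

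Camp and Pglyrp1 were higher by less than the fold limit. Camp, the cathelicidin antimicrobial peptide, was at 17.5, 21.5, 10.6 and 15.3 CPM in CCR1/2+ve and 12.2, 10.4, 6.40 and 8.23 CPM in CCR2+ve libraries, so the groups overlapped. Its log2 fold change was 0.88 ± 0.24 (SE, edgeR adjusted p = 0.0231), and it passed the limit without the third CCR1/2+ve library (1.04) or the first CCR2+ve library (1.06). Pglyrp1, a peptidoglycan recognition protein, was at 116 to 163 CPM in CCR1/2+ve and 56.3 to 105 CPM in CCR2+ve libraries. Those ranges did not touch, and the log2 fold change was 0.75 ± 0.16 (SE, edgeR adjusted p = 0.0076). In all, 3 of the 10 genes had ranges that did not overlap, against 20.2% of all genes.

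The other 6 genes did not pass. Ngp, neutrophilic granule protein, a cystatin-related protein and the most abundant of the 10 in the CCR1-labelled libraries described further on, was at 13.1 to 36.8 CPM in CCR1/2+ve and 21.7 to 37.9 CPM in CCR2+ve libraries (log2 fold change 0.02 ± 0.32, SE). Ltf, lactoferrin, the iron-binding protein that marks secondary granules, was at 0.901 to 6.32 CPM against 4.53 to 11.4 CPM, a log2 fold change of -0.98 ± 0.48 (SE, edgeR adjusted p = 0.201). It was called lower only without the fourth CCR1/2+ve library (-1.51, edgeR adjusted p = 0.0393). Mmp8, Cd177, Ly6g and Padi4 had log2 fold changes between -0.39 and 0.19. Cd177, Mmp8 and Padi4 were lower in each CCR1/2+ve library than in the CCR2+ve library of the same number, and Ly6g was not. Cd177 was at 615, 450, 692 and 776 against 749, 663, 927 and 1156 CPM. Mmp8 was at 347, 327, 579 and 550 against 385, 426, 683 and 696 CPM. In both populations Mmp8 was lower in replicates 1 and 2 (327 to 426 CPM) than in replicates 3 and 4 (550 to 696 CPM).

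The lists of related genes gave a different picture for early and later granules. Of 6 primary granule genes tested, 5 rose in resting CCR1/2+ve monocytes and 0 fell, with a median log2 fold change of 2.41. Ms4a3, a marker of granulocyte and monocyte progenitors, was at 82.0 CPM ± 38.4 (SD, n = 4) against 12.9 ± 8.22, and Elane, neutrophil elastase, at 1747 ± 607 against 337 ± 190. Of 17 other specific and gelatinase granule genes, 1 rose, Fpr1, a formyl peptide receptor (log2 fold change 1.11 ± 0.25, SE), and 0 fell, with a median of 0.14. Of 20 neutrophil genes outside the granule lists, 8 rose and 0 fell, with a median of 1.16, and S100a9, a calcium-binding protein, went from 20.2 CPM ± 4.31 to 325 ± 49.5. The paper lists Mpo, Elane, Ms4a3, Fpr1, Cxcr2, S100a8, S100a9, Fcnb, Wfdc21, Cd24a, Trem1 and Mrgpra2b among neutrophil genes raised in CCR1/2+ve monocytes. It also lists Lcn2 and Mmp9, which rose above. The lists used here were chosen with such results of these data known, so these counts are not a separate observation. Of 12 monocyte markers, 0 rose and 2 fell. Of 4 eosinophil genes 1 rose, Siglecf, and they summed to 0.764 to 3.70 CPM in the 8 resting libraries. The part that other cells had in these differences was not tested.

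**Figure D2:**
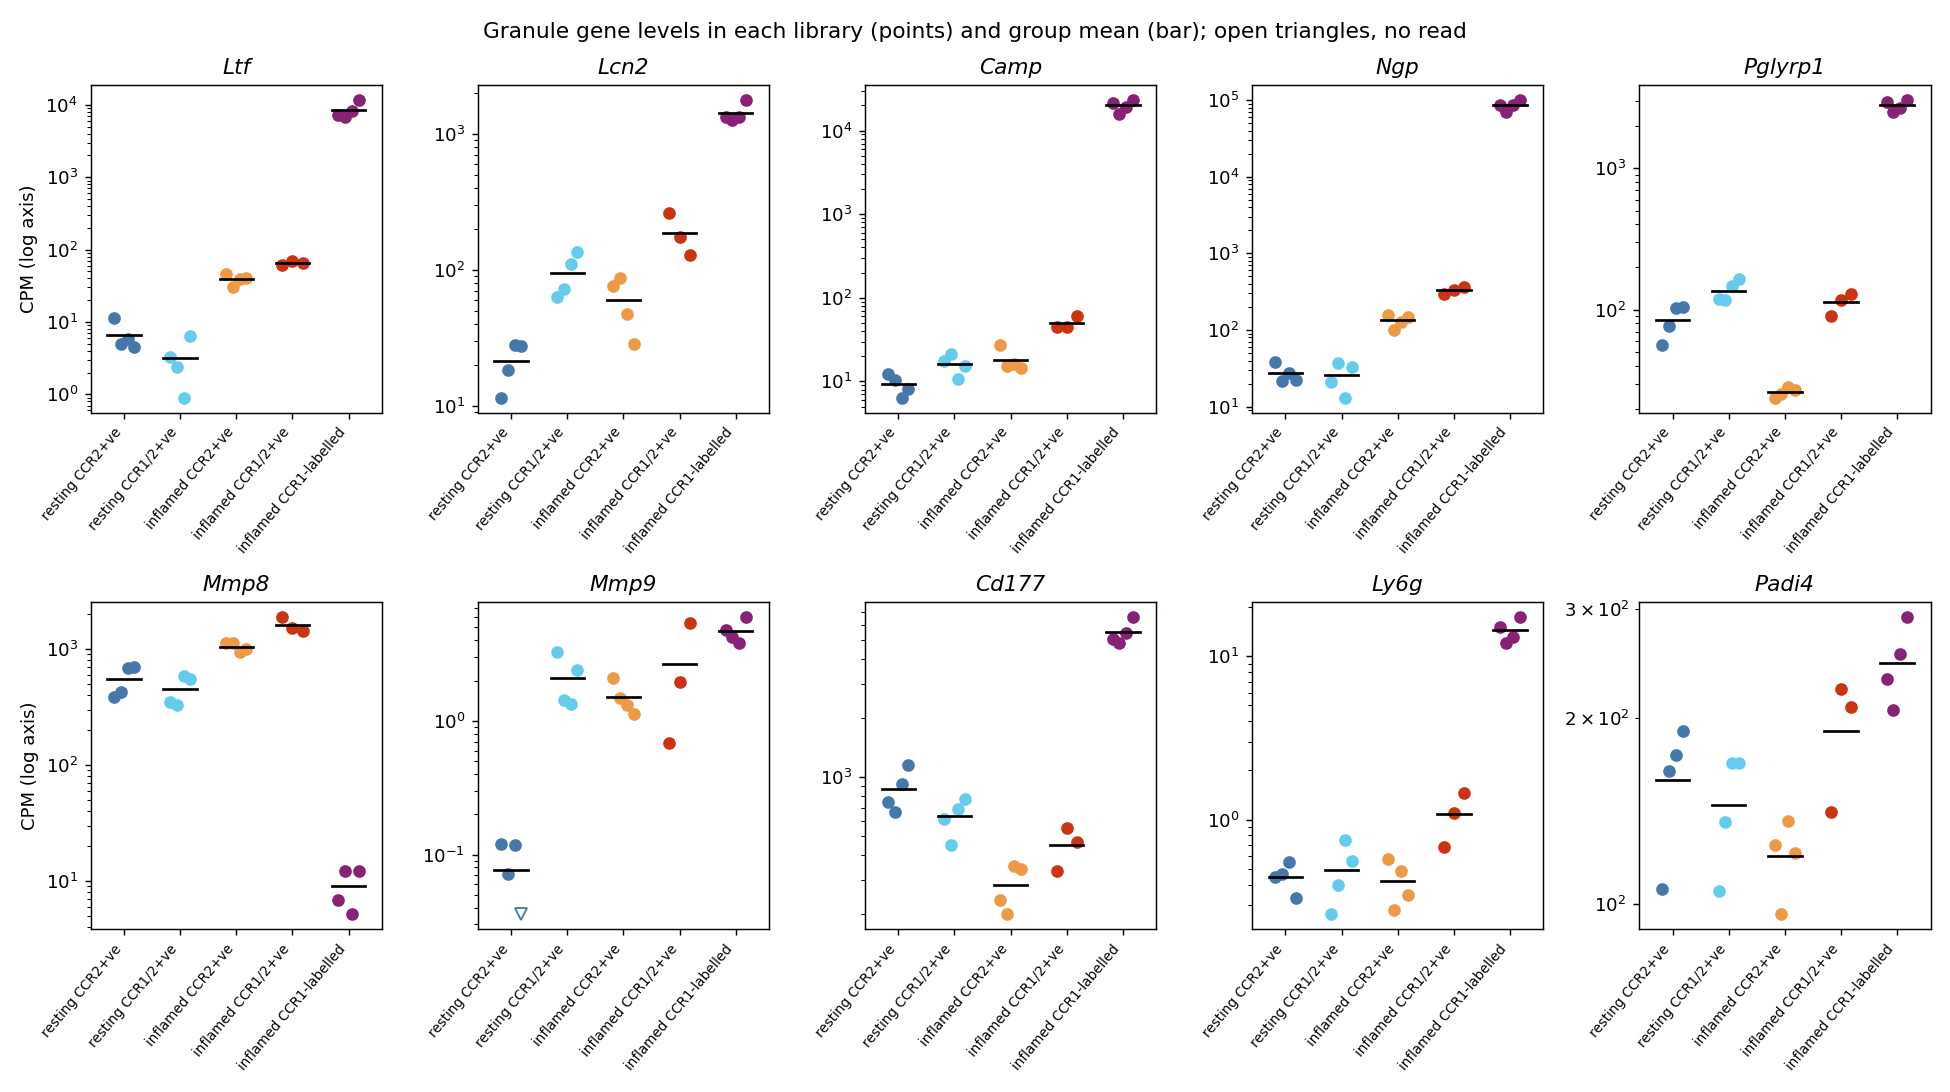
Level of each of the 10 genes (CPM, log axis, a different range in each panel) in each of the 19 libraries by group, with the group mean as a bar; the open triangle is the resting CCR2+ve library with 0 reads of Mmp9. The CCR1-labelled libraries are the highest for Ltf, Lcn2, Camp, Ngp, Pglyrp1, Cd177 and Ly6g and the lowest for Mmp8.

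The second question was how these transcripts differed between inflamed and resting CCR2+ve monocytes. The labels do not state whether resting and inflamed libraries were sorted and prepared together. An effect of inflammation and one of batch therefore cannot be told apart, here or in the CCR1/2+ve population. Of the 10 genes, 4 rose in inflamed CCR2+ve monocytes, against 9.37% of all genes, and 2 fell, against 19.2%. With no limit on the fold change 6 were higher, against 21.9%, and 3 lower, against 25.9%. The median log2 fold change of the 10 was 0.88, and that of all genes -0.10. The ranges of 8 of the 10 did not overlap between the groups, against 45.7% of all genes. Upper-quartile scaling moved the median of all genes to 0.08, and the genes called from 1748 higher and 3579 lower to 2500 and 3092.

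Ngp and Ltf rose together. Ngp was at 157, 101, 128 and 149 CPM in the inflamed and 37.9, 21.7, 27.6 and 22.0 CPM in the resting libraries, a log2 fold change of 2.22 ± 0.19 (SE, edgeR adjusted p = 1.57e-07). Ltf was at 45.7, 30.5, 39.4 and 40.9 CPM against 11.4, 5.03, 5.78 and 4.53 CPM, a log2 fold change of 2.48 ± 0.26 (SE, edgeR adjusted p = 1.64e-06). For both genes the lowest inflamed library was above the highest resting one. Lcn2 also rose, from 21.3 CPM ± 7.94 to 59.7 ± 26.8 (SD, n = 4 each), and its lowest inflamed library (28.5 CPM) was just above its highest resting one (27.9 CPM). Its call was lost with the replicate number as a block (log2 fold change 1.37, adjusted p = 0.144). Mmp9 rose from 8 reads in all resting libraries to 132 in the inflamed ones, a ratio of 19.2 (95% counting interval 9.48 to 45.5).

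Pglyrp1 and Cd177 fell. Pglyrp1 was at 23.9, 25.4, 28.5 and 27.0 CPM in the inflamed and 56.3, 76.7, 103 and 105 CPM in the resting libraries, a log2 fold change of -1.77 ± 0.17 (SE, edgeR adjusted p = 4.31e-07). Cd177 was at 237, 200, 354 and 339 CPM against 749, 663, 927 and 1156 CPM, a log2 fold change of -1.69 ± 0.20 (SE, edgeR adjusted p = 7.85e-06). Neither gene overlapped between the groups.

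Mmp8, Camp and Padi4 differed by less than the fold limit. Mmp8 went from 548 CPM ± 165 to 1044 ± 97.5 (SD, n = 4 each), a log2 fold change of 0.87 ± 0.16 (SE, edgeR adjusted p = 0.000426). It passed the limit without the third or the fourth resting library (1.06 and 1.07) and with upper-quartile scaling (1.07). Camp had a log2 fold change of 0.89 ± 0.24 (SE) and passed without the first or the second resting library (1.13 and 1.03) and with upper-quartile scaling (1.09). Padi4, a peptidylarginine deiminase that turns histone arginine into citrulline, was at 120 CPM ± 16.9 in the inflamed and 159 ± 36.9 in the resting libraries, and the groups overlapped. Ly6g stayed between 6 and 14 reads in all 8 libraries.

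The third comparison put the same question to CCR1/2+ve monocytes, with the 3 inflamed and 4 resting libraries. Of the 10 genes, 4 rose, against 9.16% of all genes, and 0 fell, against 19.4%. With no limit on the fold change the count was 7, of which 5 were higher, against 20.6% of all genes, and 2 lower, against 25.4%. The median log2 fold change of the 10 was 0.94, and that of all genes -0.25. The ranges of 4 of the 10 did not overlap, against 50.1% of all genes. Upper-quartile scaling moved the median of all genes to -0.06, and the genes called from 1708 higher and 3612 lower to 2357 and 3113.

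Ltf rose most, from 3.28, 2.35, 0.901 and 6.32 CPM in the resting to 60.7, 69.0 and 66.2 CPM in the inflamed libraries, a log2 fold change of 4.21 ± 0.46 (SE, edgeR adjusted p = 6.51e-05). Ngp rose from 21.2, 36.8, 13.1 and 33.3 CPM to 293, 328 and 363 CPM, a log2 fold change of 3.51 ± 0.33 (SE, edgeR adjusted p = 2.31e-05). Both genes were several times above every resting library in each inflamed one. Mmp8 rose from 451 CPM ± 132 (SD, n = 4) to 1606 ± 255 (SD, n = 3), and Camp from 16.2 ± 4.56 to 49.7 ± 8.72. Their log2 fold changes were 1.71 ± 0.19 and 1.48 ± 0.24 (SE), and neither overlapped.

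Lcn2, Pglyrp1 and Cd177 had adjusted p-values below 0.05 but fold changes under the limit. Lcn2 was at 127 to 259 CPM in the inflamed and 62.6 to 136 CPM in the resting libraries (log2 fold change 0.86 ± 0.28, SE). It passed the limit without the fourth inflamed (1.06) or the fourth resting library (1.05) and with upper-quartile scaling (1.08). Pglyrp1 was at 90.3 to 130 CPM against 116 to 163 CPM (-0.40 ± 0.14, SE), and Cd177 at 334 to 552 CPM against 450 to 776 CPM (-0.61 ± 0.20, SE). Mmp9 was uneven among the inflamed libraries, with 14, 39 and 123 reads. Its log2 fold change was 0.23 ± 0.61 (SE) and turned to -0.83 without the fourth inflamed library, the one with 123 reads. Ly6g and Padi4 overlapped between the groups, with log2 fold changes of 1.03 ± 0.47 and 0.28 ± 0.19 (SE). Ly6g, on 8 to 33 reads a library, was called higher with all 19 libraries in one fit (1.15, edgeR adjusted p = 0.00655).

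The 2 comparisons with resting monocytes shared no library, and the difference between them was tested as an interaction. Of the 10 genes, 1 was called with a higher signed log2 change in CCR1/2+ve than in CCR2+ve monocytes, against 0.0911% of all genes, and 0 with a lower one, against 0.123%. That gene was Pglyrp1, which was lower by less in the CCR1/2+ve population and had a log2 change of -1.77 in the CCR2+ve and of -0.40 in the CCR1/2+ve population, a difference of 1.32 ± 0.24 (SE, edgeR adjusted p = 0.0273). The call was lost when any of 5 libraries was left out in turn: the third inflamed CCR1/2+ve (adjusted p = 0.129), the first or the second inflamed CCR2+ve (0.0648 and 0.0504), the second resting CCR1/2+ve (0.0643) or the third resting CCR2+ve (0.0682). Mmp9, with log2 changes of 4.10 and 0.23, came close (-3.93 ± 0.88, SE, edgeR adjusted p = 0.0573) and passed under 8 of 21 alternatives, 2 of them without a single library: the fourth inflamed CCR1/2+ve (0.0234) or the fourth inflamed CCR2+ve (0.0418). The log2 changes of Ngp and Ltf were larger in CCR1/2+ve monocytes, but the differences, 1.25 ± 0.40 and 1.68 ± 0.57 (SE), did not pass the test (edgeR adjusted p = 0.195 and 0.228). The interaction of Ngp was called with DESeq2 (1.31, adjusted p = 0.0189). That of Cd177, 1.04 ± 0.32 (SE, edgeR adjusted p = 0.172), was called with DESeq2 (1.10, adjusted p = 0.0267) and with the replicate block (1.01, adjusted p = 0.00645).

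**Figure D3:**
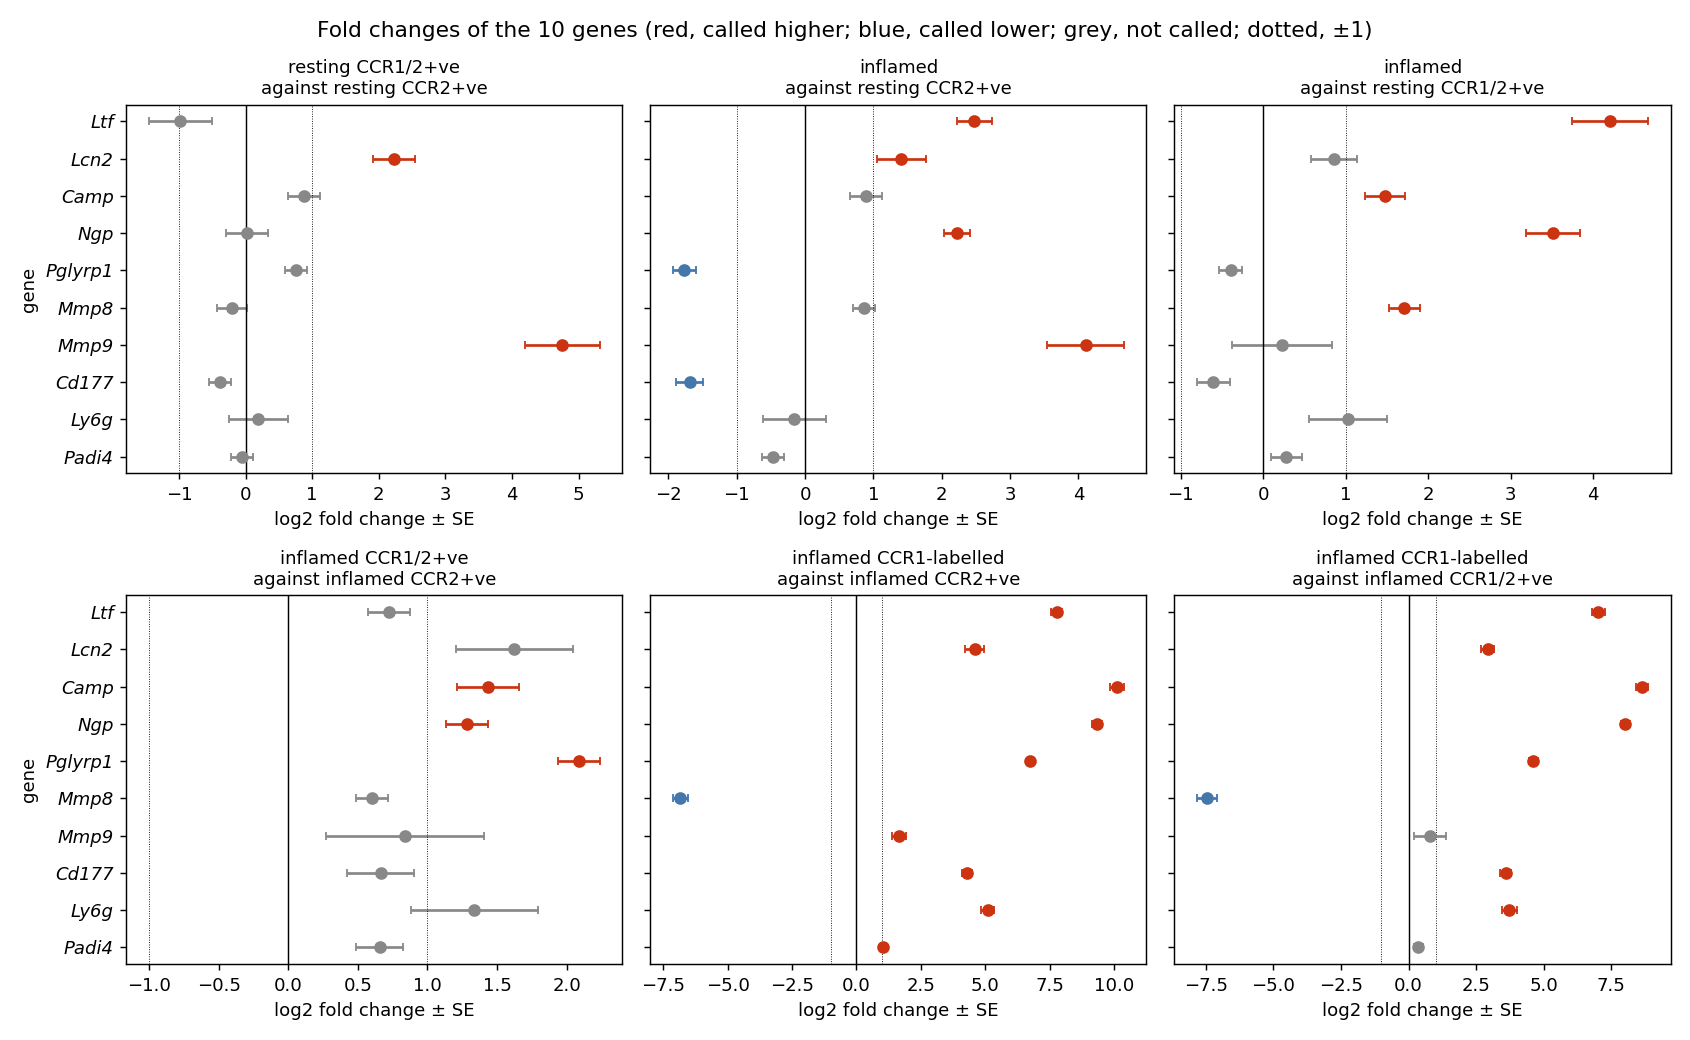
Log2 fold change of each of the 10 genes with its standard error (bars) in 6 comparisons, with a different range on each axis. Mmp8 is the only 1 of the 10 called lower in the CCR1-labelled libraries (-6.83 and -7.46), while Ngp and Ltf are called higher in both comparisons of inflamed with resting monocytes.

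As a share of the 10 genes' summed level per kb, Ngp went from 3.61% ± 1.58 (SD, n = 4) to 14.8% ± 2.30 (SD, n = 4) in CCR2+ve monocytes with inflammation and from 3.78% ± 1.96 (SD, n = 4) to 20.0% ± 2.76 (SD, n = 3) in CCR1/2+ve monocytes. Cd177 went the other way, from 46.7% to 13.6% ± 3.94 and from 37.5% to 11.8% ± 3.08. Mmp8 became the leading gene, at 58.4% ± 4.82 and 49.0% ± 6.18. The ranges of all 3 shares in inflamed and resting libraries did not overlap in either population.

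Most of the myeloid transcription factors listed for granulopoiesis fell in both populations. Of 10 tested, 8 fell in each, with medians of -2.69 and -2.50. Among the 8 were Irf8 and Klf4, which are known for monocyte fate and also stand in the monocyte list. Spi1, which encodes PU.1, was at 38.1 CPM ± 1.64 (SD, n = 4) in inflamed and 735 ± 74.9 (SD, n = 4) in resting CCR2+ve monocytes, and Cebpd was at 4.20 ± 1.17 against 183 ± 9.08. Cebpe, which encodes the factor best known for secondary granule genes, was not found in the deposited counts. Of 6 primary granule genes, 2 fell in the CCR2+ve and 4 in the CCR1/2+ve population, and 0 rose in either. Mpo, myeloperoxidase, was at 41.9 CPM ± 18.4 in inflamed against 375 ± 249 in resting CCR2+ve monocytes, and at 145 ± 46.0 (SD, n = 3) against 1827 ± 865 (SD, n = 4) in CCR1/2+ve monocytes.

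The other specific and gelatinase granule genes moved both ways. Of 17 tested, 5 rose and 3 fell in CCR2+ve monocytes (median -0.16), and 6 rose and 2 fell in CCR1/2+ve monocytes (median 0.69). Of all genes, 9.37% rose and 19.2% fell in CCR2+ve monocytes, and 9.16% and 19.4% in CCR1/2+ve monocytes, so the falls were no more frequent than over all genes. Lrg1, a leucine-rich glycoprotein of neutrophil granules, rose from 1.14 CPM ± 0.635 to 9.36 ± 3.28 (SD, n = 4 each) in CCR2+ve monocytes, whereas Plaur, the urokinase receptor, fell (log2 fold change -2.36 ± 0.12, SE). Of 20 neutrophil genes outside the granule lists, 7 rose and 1 fell in CCR2+ve monocytes, and 6 rose and 2 fell in CCR1/2+ve monocytes. Retnlg, a resistin-like protein, rose in both, whereas S100a8 and S100a9 fell in CCR1/2+ve monocytes.

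Among relatives and partners of the 10 genes, 3 of 13 rose and 2 fell in CCR2+ve monocytes, and 5 rose and 1 fell in CCR1/2+ve monocytes. The falls were again no more frequent than over all genes (19.2% and 19.4%). Ly6a, which encodes the surface antigen Sca-1 of the same family as Ly6G, rose in both (log2 fold change 1.66 ± 0.36 and 2.42 ± 0.28, SE). Trf, transferrin, a relative of lactoferrin, rose in CCR1/2+ve monocytes (1.07 ± 0.18, SE) and had a log2 fold change of -0.49 ± 0.20 in CCR2+ve monocytes, which did not pass. The interaction of Trf was called (1.52 ± 0.28, SE, edgeR adjusted p = 0.0273).

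Markers of other cells also moved with inflammation. All 5 erythroid genes fell in both populations, from a sum of 51.1 to 263 CPM in the resting libraries to 0.645 to 3.01 CPM in the inflamed ones of both populations. Of 4 basophil and mast cell genes, 4 rose in the CCR2+ve and 3 in the CCR1/2+ve population, and their sum went from 0.0924 to 18.9 CPM up to 103 to 236 CPM. Of 4 eosinophil genes 2 rose in the CCR2+ve population, Epx and Prg2, and 1 in the CCR1/2+ve population, Prg2, and their sum was at most 3.53 CPM in the same inflamed libraries. Whether such cells carried any of the granule transcripts was not tested.

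The fourth comparison asked whether the populations still differ in inflamed mice. Of the 10 genes, 3 rose in inflamed CCR1/2+ve monocytes relative to inflamed CCR2+ve monocytes, against 0.102% of all genes, and 0 fell, against 0.0429%. The log2 fold changes of all 10 were above 0, with a median of 1.06, and the median of all genes was -0.03. The ranges of 8 of the 10 did not overlap, against 9.71% of all genes. The inflamed libraries used here also entered the comparisons with resting monocytes, so these results are not independent of those.

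The called genes were Pglyrp1, Ngp and Camp. Pglyrp1 was at 90.3, 117 and 130 CPM in CCR1/2+ve and 23.9 to 28.5 CPM in CCR2+ve libraries, a log2 fold change of 2.09 ± 0.15 (SE, edgeR adjusted p = 6.87e-05). Ngp was at 293, 328 and 363 CPM against 101 to 157 CPM, a log2 fold change of 1.28 ± 0.15 (SE, edgeR adjusted p = 0.00369). Camp was at 45.1, 44.3 and 59.8 CPM against 27.3, 15.2, 16.1 and 14.5 CPM, a log2 fold change of 1.43 ± 0.22 (SE, edgeR adjusted p = 0.0244). The calls of Pglyrp1 and Ngp held without any 1 library. That of Camp was lost in 5 of 7 such fits, without the third or the fourth CCR1/2+ve library (adjusted p = 0.0825 and 0.0788) or the second, the third or the fourth CCR2+ve library (0.0952, 0.0631 and 0.081).

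Lcn2 had the second largest log2 fold change of the 10, 1.62 ± 0.42 (SE), from 187 CPM ± 66.8 (SD, n = 3) against 59.7 ± 26.8 (SD, n = 4). Its adjusted p was 0.309 in edgeR and 0.000577 in DESeq2, and it ranged from 0.000571 to 0.699 among the alternatives. Ltf and Mmp8 had narrower errors, with log2 fold changes of 0.72 ± 0.15 and 0.60 ± 0.12 (SE), adjusted p-values of 0.0878 and 0.0682, and ranges that did not overlap. Ly6g was read 14, 22 and 33 times in the CCR1/2+ve and 6 to 13 times in the CCR2+ve libraries (1.34 ± 0.46, SE, edgeR adjusted p = 0.379). Mmp9 had 0.84 ± 0.57 (SE) and turned to -0.19 without the fourth CCR1/2+ve library.

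Of 20 neutrophil genes outside the granule lists, all 20 had log2 fold changes above 0 in inflamed CCR1/2+ve monocytes (median 1.30), 2 of them called: Fcnb, a ficolin, and Fpr2, a formyl peptide receptor. Of 6 primary granule genes 0 were called, although all 6 had log2 fold changes above 0 (median 1.08). Of 17 other specific and gelatinase granule genes 1 was called, Fpr1 (median 0.32). Using DESeq2, the paper marks Mpo, Elane, Lcn2, S100a8, S100a9, Cxcr2, Fcnb and Fpr1 as raised in CCR1/2+ve monocytes of inflamed mice too. With edgeR only Fcnb and Fpr1 of these were called. Over all genes edgeR called 19 higher and 8 lower, and DESeq2 44 and 62. A missing edgeR call therefore does not show that the populations were alike. The summed level of the monocyte markers was 52264 to 55845 CPM in CCR1/2+ve and 47947 to 58496 CPM in CCR2+ve libraries.

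**Figure D4:**
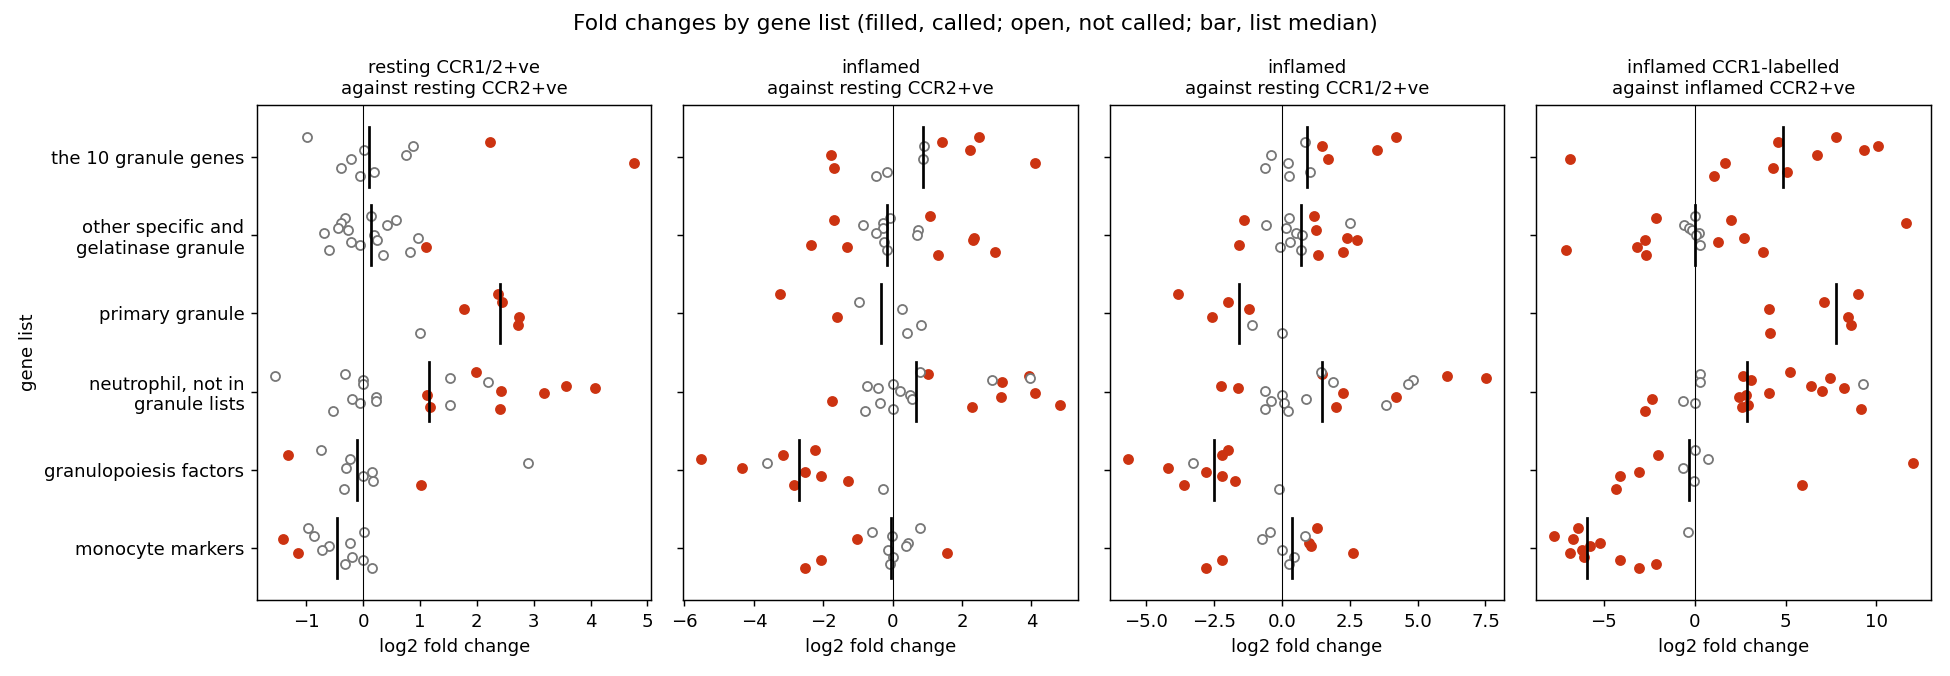
Log2 fold changes of single genes by list in 4 comparisons, with a different range on each axis; filled points passed the test and bars are list medians. Primary granule genes have a median of 2.41 in resting CCR1/2+ve monocytes, where the 10 granule genes have 0.11, and both are above 0 in the CCR1-labelled libraries, where the monocyte markers have -5.93.

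The 4 CCR1-labelled libraries from inflamed mice differed from all others. Against inflamed CCR2+ve monocytes, 9 of the 10 genes rose, against 14.4% of all genes, and 1 fell, against 16.8%. Against inflamed CCR1/2+ve monocytes, 7 rose, against 13.2%, and 1 fell, against 14.6%. The median log2 fold changes of the 10 were 4.83 and 3.66, and those of all genes -0.01 and 0. The ranges of 10 and 8 of the 10 did not overlap, against 45.3% and 47.4% of all genes. The 2 comparisons share the CCR1-labelled libraries, so their values are given side by side and not as 2 separate observations. The 10 genes together held 9.91% to 13.4% of the reads in these 4 libraries and 0.146% to 0.286% in the other 15.

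Ngp was the most abundant transcript per kb of exon in each of the 4 libraries, at 86115, 69722, 87501 and 100769 CPM, and it held 6.83% to 9.12% of all reads on genes. Inflamed CCR2+ve libraries had at most 157 CPM, and the log2 fold change was 9.33 ± 0.20 (SE, edgeR adjusted p = 2.13e-15). Camp ranked 2 or 3 per kb, at 21647, 15746, 19153 and 23308 CPM, against at most 27.3 CPM in inflamed CCR2+ve libraries (10.10 ± 0.27, SE, edgeR adjusted p = 1.64e-12). Ltf ranked between 12 and 19, at 7271, 6797, 8274 and 11748 CPM (7.77 ± 0.22, SE, edgeR adjusted p = 3.52e-13). These are the 3 genes whose promoters were given beside that of Mmp8, and against inflamed CCR1/2+ve monocytes their log2 fold changes were 8.03 ± 0.17 for Ngp, 8.65 ± 0.22 for Camp and 7.02 ± 0.24 for Ltf (SE).

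Pglyrp1, Cd177 and Lcn2 followed. Pglyrp1 was at 2482 to 3041 CPM in the CCR1-labelled libraries, with a log2 fold change of 6.74 ± 0.13 (SE) against inflamed CCR2+ve and 4.63 ± 0.16 against inflamed CCR1/2+ve monocytes. Cd177 was at 4880 to 6622 CPM, with 4.29 ± 0.20 and 3.60 ± 0.21. Lcn2 was at 1254 to 1770 CPM, with 4.58 ± 0.35 and 2.93 ± 0.25. None of the 3 overlapped with any of the other 15 libraries. Per kb, Pglyrp1, Cd177 and Lcn2 were at 1515 CPM per kb ± 139, 1940 ± 274 and 540.5 ± 90.4 (SD, n = 4), all far below Ngp at 70398 ± 10409.

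Mmp8 went the opposite way. It was at 6.87, 12.2, 5.18 and 12.2 CPM in the CCR1-labelled libraries and at 1121, 1132, 934 and 991 CPM in inflamed CCR2+ve libraries, a log2 fold change of -6.83 ± 0.29 (SE, edgeR adjusted p = 2.43e-09). Against inflamed CCR1/2+ve monocytes it was -7.46 ± 0.38 (SE, edgeR adjusted p = 5.01e-06). The highest CCR1-labelled library was below the lowest of the other 15, which had 327 CPM. Per kb, Mmp8 exceeded Ngp by 2.51 ± 0.670 times (SD, n = 3) in inflamed CCR1/2+ve and 4.07 ± 1.06 times (SD, n = 4) in inflamed CCR2+ve monocytes, while Ngp exceeded Mmp8 by 11377 to 33551 times in the CCR1-labelled libraries.

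**Figure D5:**
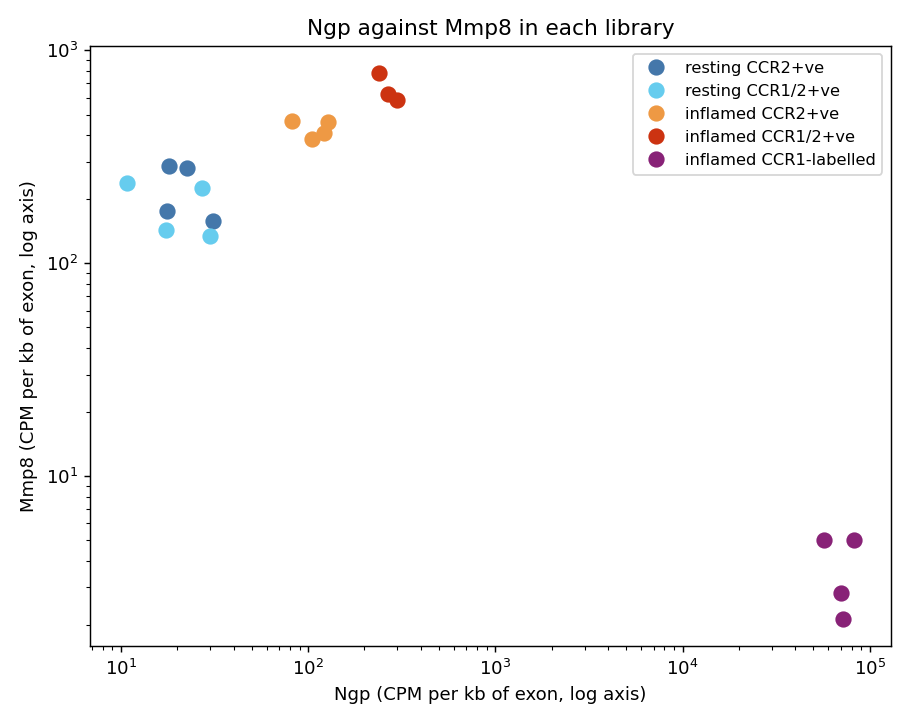
Ngp against Mmp8 in each of the 19 libraries (CPM per kb of exon, log axes). The CCR1-labelled libraries lie at the lower right, with Ngp at 57056 to 82463 and Mmp8 at 2.13 to 5.03 CPM per kb, and the other 15 at the upper left.

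Mmp9, the other matrix metalloproteinase among the members, was scarce here too, at 4.82, 4.20, 3.84 and 6.03 CPM in the CCR1-labelled libraries. Its log2 fold change was 1.66 ± 0.27 (SE, edgeR adjusted p = 6.48e-05) against inflamed CCR2+ve and 0.80 ± 0.58 (SE, edgeR adjusted p = 0.319) against inflamed CCR1/2+ve monocytes. The latter passed without the fourth CCR1/2+ve library (1.84, edgeR adjusted p = 0.00272). Ly6g was at 12.0 to 17.5 CPM, against at most 1.45 CPM in the other 15 libraries, although the sort that the study describes removed Ly6G+ cells. Its log2 fold changes were 5.09 ± 0.26 and 3.73 ± 0.27 (SE). Padi4 changed least, from 120 CPM ± 16.9 in inflamed CCR2+ve to 246 ± 36.1 (SD, n = 4 each), with a log2 fold change of 1.04 ± 0.13 (SE). It fell under the limit without the fourth CCR1-labelled (0.95) or the second inflamed CCR2+ve library (0.94), and it was not called against inflamed CCR1/2+ve monocytes (0.36 ± 0.17, SE).

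Per kb, Ngp exceeded Camp by 2.68 ± 0.156 times (SD, n = 4) in the CCR1-labelled, 4.13 ± 0.422 times (SD, n = 3) in inflamed CCR1/2+ve and 4.75 ± 1.22 times (SD, n = 4) in inflamed CCR2+ve libraries. Ngp exceeded Ltf by 29.1 ± 3.80, 14.2 ± 1.14 and 9.61 ± 0.474 times in the same groups. Camp exceeded Ltf by 10.9 ± 1.90, 3.47 ± 0.601 and 2.11 ± 0.485 times there, and by 32.6 ± 18.7 times in resting CCR1/2+ve and 6.90 ± 2.30 times in resting CCR2+ve libraries (SD, n = 4 each). These ratios were not tested.

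Markers of early granule stages were higher beside the later ones in the CCR1-labelled libraries. Of 6 primary granule genes 6 rose against inflamed CCR2+ve monocytes (median 7.75), with Elane at 24887 CPM ± 1913 and Mpo at 20730.3 ± 2037 (SD, n = 4). Of 20 neutrophil genes outside the granule lists, 13 rose and 2 fell (median 2.88). Other specific and gelatinase granule genes were split, with 5 of 17 higher and 5 lower (median 0.04), against 14.4% and 16.8% of all genes. Chit1, chitotriosidase, was at 235 CPM ± 18.1 (SD, n = 4) and had at most 3 reads in any inflamed CCR2+ve library, whereas Slc11a1, a metal transporter of phagocytes, fell (log2 fold change -7.09 ± 0.40, SE). Of 10 granulopoiesis factors 2 rose, Gfi1 and Myb, and 4 fell. Gfi1, a repressor needed for neutrophil development, was at 23.1 CPM ± 3.17 and had 0 reads in inflamed CCR2+ve libraries.

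Of 13 relatives and partners, 1 rose and 7 fell in these libraries. Padi2, another peptidylarginine deiminase, was at 0.792 CPM ± 0.178 against 92.6 ± 21.2, and Timp2, a metalloproteinase inhibitor, at 0.425 ± 0.111 against 4.68 ± 0.952. Of 12 monocyte markers 11 fell (median -5.93), and Ly6c2, whose product was part of the sort, was the exception at 1421 CPM ± 48.5 against 1855 ± 407. All 4 eosinophil genes rose, to a sum of 39.0 to 89.1 CPM, well below any of the leading members. Nkg7, in the T and NK cell list, was at 1562 CPM ± 152 against 2.49 ± 0.115, whereas Cd3e, Cd3g, Trbc2 and Ncr1 were each at 0.0455 CPM or less.

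The genes most like the 10 across the 19 libraries were Alox5, Ptgs1, Acap1, Fam126b and Cpd, with Pearson correlations of 0.983 to 0.977 with the mean scaled log2 level of the 10. Alox5 and Ptgs1 encode arachidonate 5-lipoxygenase and a prostaglandin synthase. The value is a description only, since the libraries fall into separate clusters and the CCR1-labelled ones are extreme. Across the 15 other libraries alone these correlations were 0.786 to 0.922. Mmp8 correlated with the mean at -0.848 over the 19 libraries and at 0.707 over the 15, and Cd177 at 0.845 and -0.156.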

How the data were processed

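The authors sequenced paired-end libraries made with a low-input kit, aligned them to GRCm38 with STAR 2.7.10a and deposited raw counts of reads per gene, with no normalization. Strand is not stated and no molecular identifiers were used, so intervals cover counting error only. The table held 20 columns, of which 19 matched a sample and 1 was not used.

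Tests covered genes averaging 1 read or more per library. Each comparison used the libraries of its groups only, with TMM factors and edgeR 4.0.16 quasi-likelihood tests (R 4.3.3), and the interaction used 15 libraries. A gene was called at a Benjamini-Hochberg adjusted p below 0.05 and a log2 fold change of at least 1 in size, and only such genes are said to have risen or fallen. CPM values used TMM factors over the 19 libraries and were divided by exon length (GENCODE M21) to compare genes. Exon length was the union of all annotated exons of a gene: 2623 bases for Lcn2, 1837 for Pglyrp1, 1222 for Ngp and 758 for Camp. A union can exceed the length of a single transcript, so levels per kb can come out too low for some genes. The test was checked on simulated counts. Alternatives were DESeq2 1.42.0, other scalings and filters, all 19 libraries in one fit, no fold limit, each library left out, and the replicate number as a block. Same-numbered libraries deviated together, with correlations of 0.334 to 0.594, between the resting populations, and of 0.161 to 0.287 between CCR1-labelled and inflamed CCR2+ve libraries, though no source says what a number marks. The 10 genes and the lists were chosen with earlier results of these data known. All 10 genes are named; of each list, up to 4 of the largest called changes or the most abundant genes are named. Olfm4, Ctsg, Ltb4r1, Cebpe, Mmp14, Slc22a17, Ear6 and Mcpt8, which the lists name, were not found in the deposited counts. Those counts hold 0 genes of chromosome 14, so the shares over all genes leave that chromosome out. Plots were drawn with matplotlib 3.10.9.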

Additional observations from a re-analysis of the deposited data

Results flagged for a closer look

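Camp stood at 27.3 CPM in the first inflamed CCR2+ve library and at 14.5 to 16.1 CPM in the other 3, a gap larger than Dixon's limit for 4 samples. Lcn2 stood at 1770 CPM in the fourth CCR1-labelled library and at 1254 to 1327 CPM in the other 3, by the same criterion. These were 2 of 40 groups of values checked, and chance alone flags about 5% of them. Pglyrp1 changed differently with inflammation in the 2 populations, with an interaction of 1.32 on the log2 scale (edgeR adjusted p = 0.0273), a call that was lost without any of 5 single libraries.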

How the results depend on the processing

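Of the values recomputed under alternatives, 1024 kept their direction and call, 28 gained a call, 13 lost one and 14 changed sign. With no fold limit and no block the called genes among the 10 numbered 4 between the resting populations, 7 for inflammation in CCR1/2+ve and 9, in place of 6, in CCR2+ve monocytes. For the interaction the count was 4 with DESeq2, 3 with the replicate block, 2 with RLE factors, upper-quartile factors, filterByExpr or no filter, and 0 to 2 with 1 library left out. Signs turned only for values near 0 or with few reads. Between the resting populations the log2 fold change of Ngp was -0.061 with all 19 libraries in one fit, -0.042 with the replicate block and -0.21 to 0.24 with 1 library left out, that of Padi4 -0.20 to 0.062 and that of Ly6g -0.058 to 0.39. With inflammation in CCR2+ve monocytes Ly6g had 0.039 with upper-quartile factors and -0.34 to 0.024 with 1 library left out. Mmp9 had -0.83 to 0.69 with inflammation in CCR1/2+ve monocytes and -0.19 to 1.30 between the inflamed populations.

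With the replicate block Lcn2 lost its call with inflammation in CCR2+ve monocytes (1.37, adjusted p = 0.144) and gained one between the inflamed populations (1.86, adjusted p = 0.000571), where the numbers did not pair the libraries (same-number correlations of -0.291 to 0.274 and -0.32 to 0.527). In the comparisons where they did, the block changed no call made with the fold limit among the 10. Over all genes, calls between the inflamed populations went from 19 higher and 8 lower to 44 and 62 with DESeq2, 35 and 45 with the block, 36 and 17 with all libraries, 33 and 20 with no filter, and 13 to 19 and 2 to 23 with 1 library left out. Those of the interaction went from 17 and 23 to 82 and 69 with DESeq2, 36 and 41 with the block, 0 and 0 without the third inflamed CCR1/2+ve library, and 48 and 56 without the second resting CCR2+ve library. With no fold limit they were 1575 and 1574 between the resting populations, and 4082 and 4839 in CCR2+ve and 3844 and 4742 in CCR1/2+ve monocytes with inflammation. The causes were not tested. Mmp9 and Ly6g rested on 0 to 123 and 6 to 33 reads per library outside the CCR1-labelled group, which limits what can be said of them.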
